A study of Mus musculus with 14 samples.

Results

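The genes described here are mouse zinc finger protein genes named with the prefix Zfp and a number. They were taken from the GENCODE M21 annotation of chromosomes 1 to 19 when their mean level was at least 5 CPM (the count divided by the library total, times 1000000) in the 6 libraries of set 1 and also in the 8 libraries of set 2. Of 367 genes with such a name, 204 reached the minimum in set 1 and 215 in set 2, and 195 reached it in both. These 195 are called members below. They were thus chosen by name and by mean level, and the level is given as a description only. Just inside the minimum lay Zfp27, at 5.13 CPM in set 1 and 9.19 in set 2, and Zfp429, at 5.45 and 5.16 CPM. Just outside lay Zfp524, at 6.47 and 4.90 CPM, and Zfp296, at 6.78 and 4.89 CPM. All 195 members also passed the filter on low counts in both sets.

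The samples were mouse tumor organoids of the small intestine, labelled APT organoids, whose alleles the labels do not spell out. Organoids are cultures that grow as small hollow or solid bodies of epithelium. Control 1 and control 2 carried control hairpins. Hairpin 1 and hairpin 2 were short hairpin RNAs against Suv4-20h2, listed as Kmt5c, in exon 4 and in exon 9. Every group, controls included, was kept with 0.5 µg/ml doxycycline for 4 days to switch the hairpins on. There were 3 libraries each of control 1 and hairpin 1 (set 1) and 4 each of control 2 and hairpin 2 (set 2). Each hairpin is labelled as a clone. Whether the replicates are separate cultures is not said, and the p-values cover only the spread among these libraries, which may be technical. Set and hairpin cannot be told apart, and no control is shared between the sets.

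Most of these genes encode proteins with C2H2 zinc fingers, short folds in which a pair of cysteines and a pair of histidines hold a zinc ion. Strings of such fingers read DNA sequence. Many of the proteins also carry a KRAB box, which recruits the corepressor Trim28, and through it the methyltransferase Setdb1 and HP1 proteins, to retroelements, imprinted loci and other targets. The genes have multiplied by tandem duplication and often stand in clusters, many of them covered by heterochromatin with methylated lysine 9 of histone H3. Suv4-20h2 methylates lysine 20 of histone H4 in such chromatin.

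Zfp57 had the largest change of any member under hairpin 2, a fall, and its zinc fingers and promoter are shown first for that reason. It encodes a factor that binds the methylated word TGCCGC at imprinting control regions and keeps DNA methylation there. The gene lies on the plus strand at chr17:37001163-37010635 (GRCm38). Its coding sequence in GENCODE M21 (421 residues) held 3 matches to the C2H2 pattern, all in exon 5 of 5. They lie at chr17:37009679-37009741, chr17:37009763-37009825 and chr17:37010051-37010113, plus strand. Each sequence runs 5′ to 3′, with the codons of the zinc-binding cysteines and histidines in capitals.
Zfp57 finger 1: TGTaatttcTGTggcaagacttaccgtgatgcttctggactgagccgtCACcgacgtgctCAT
Zfp57 finger 2: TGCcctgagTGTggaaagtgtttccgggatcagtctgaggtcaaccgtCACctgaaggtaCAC
Zfp57 finger 3: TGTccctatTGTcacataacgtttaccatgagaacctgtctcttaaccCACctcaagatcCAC
Each match is 63 bases long. The matches are numbered in their order, and fingers that depart from the pattern are not counted, so the protein may hold more than 3. By the same pattern the median member had 9 matches, and the highest count was 36, in Zfp142.

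The 250 bases before the RefSeq start of Zfp57 (GRCm38.p6) are set beside those of Zfp316 and Zfp503, which rose under hairpin 2, to show how far their CG content differs. They cover chr17:37000913-37001162 on the plus strand, chr5:143270023-143270272 on the minus strand and chr14:21989602-21989851 on the minus strand. CG dinucleotides are in capitals.
Zfp57: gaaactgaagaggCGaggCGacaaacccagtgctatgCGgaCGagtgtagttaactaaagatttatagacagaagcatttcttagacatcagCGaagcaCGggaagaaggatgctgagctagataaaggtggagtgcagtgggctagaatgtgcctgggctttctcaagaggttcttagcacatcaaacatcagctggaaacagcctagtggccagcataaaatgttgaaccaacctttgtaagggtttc
Zfp316: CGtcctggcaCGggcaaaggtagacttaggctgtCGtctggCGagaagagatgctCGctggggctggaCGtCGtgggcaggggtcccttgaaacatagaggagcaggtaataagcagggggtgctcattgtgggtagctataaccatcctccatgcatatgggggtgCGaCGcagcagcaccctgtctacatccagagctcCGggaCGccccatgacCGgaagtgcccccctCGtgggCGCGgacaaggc
Zfp503: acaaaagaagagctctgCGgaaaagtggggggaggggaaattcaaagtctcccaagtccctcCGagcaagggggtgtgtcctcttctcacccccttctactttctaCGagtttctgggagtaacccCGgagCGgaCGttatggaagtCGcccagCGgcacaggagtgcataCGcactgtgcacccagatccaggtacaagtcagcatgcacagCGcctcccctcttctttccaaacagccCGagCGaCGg
Before its start Zfp57 had 6 CG dinucleotides, against 15 for Zfp316 and 13 for Zfp503. Over windows of 300 bases, from 250 before to 50 after the start, the counts were 6, 25 and 19, and Zfp131, the other gene that rose, had 36. Promoters matched by symbol for 163 members, whose median count was 16. The median was 11 over 20595 genes and 22 over the 7500 matched genes that reach the same CPM minimum. A count of 6 or fewer was found in 9.20% of member promoters, in 39.8% of all promoters and in 6.69% of those at the same minimum. The word TGCCGC, searched on both strands, was in 31 member promoters (19%), among them those of Zfp316 and Zfp503 and not that of Zfp57. It was in 13.1% of all promoters and in 20.8% of those at the same minimum.

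The libraries held 9272134 to 26284079 counts, of which members took 0.537 to 0.669% in set 1 and 0.859 to 0.966% in set 2. The targeted gene Kmt5c had 72.3, 75.8 and 67.3 CPM in control 1 and 53.6, 64.3 and 56.1 CPM in hairpin 1. It had 129, 121, 116 and 128 CPM in control 2 and 114, 111, 99.3 and 106 CPM in hairpin 2. Hairpin and control libraries of Kmt5c did not overlap in either set. These and later CPM values use totals scaled by TMM factors. With edgeR, the log2 fold change of Kmt5c was -0.31 (adjusted p = 0.80) in set 1 and -0.20 (adjusted p = 0.098, and 0.0074 with a replicate block) in set 2. All 10 markers of intestinal epithelium were at 1 CPM or more in every group. Their sum was 6302 to 7900 CPM in control 1, 6887 to 7630 in hairpin 1, 6415 to 6475 in control 2 and 4950 to 5568 in hairpin 2. Summed markers stayed at or below 15.6 CPM for fibroblasts (8 markers) and 53.7 for immune cells (6 markers). The 4 endothelial markers summed to at most 2.74 CPM in control 1 and 0.585 in set 2, and reached 48.8 in a hairpin 1 library. The set 2 files list 4 of the fibroblast, 3 of the immune and 2 of the endothelial markers. Dcn, Lum and Thy1 were at 0 in every set 1 library, Cd3e, Csf1r and Kdr in control 1, and Csf1r also in hairpin 2. The lower epithelial sum of hairpin 2 moved with the set 2 results below, and its part in them was not tested. In bulk RNA, fewer cells of a type and less RNA per cell cannot be told apart.

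Hairpin 2 was followed by a fall of Zfp57 and by smaller rises of Zfp503, Zfp316 and Zfp131, while the other 191 members did not pass the test. These calls are edgeR's quasi-likelihood test with Benjamini-Hochberg adjustment over 14126 genes, at an adjusted p under 0.05. The 3 members called higher compare with 2.04% of all tested genes, and the 1 called lower with 4.01%. In either direction, 2.05% of members and 6.05% of all tested genes were called. At an unadjusted p under 0.05 there were 30 members (15.4%), against 19.8%. Most members moved little. Their median log2 fold change was 0.06, against 0.0050 over all tested genes and 0.01 over the 9386 genes that reach the same CPM minimum. Of the 195 members, 128 (65.6%) lay above 0, against 51.1% of all tested genes and 53.2% of those at the same minimum. Groups did not overlap for 18 members in the higher direction (9.23%, background 6.88%) and for 4 in the lower direction (2.05%, background 8.42%). Deviations here and below are on the log2 scale, from the mean of a gene's control libraries in its set. By library, the median deviation of members was 0.06, 0.08, 0.11 and -0.03 in hairpin 2 and 0.03, 0.01, 0.04 and -0.08 in control 2. The groups overlapped, replicate 4 was the lowest library of each, and the hairpin library was the higher in all 4 numbered pairs.

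**Figure D1:**
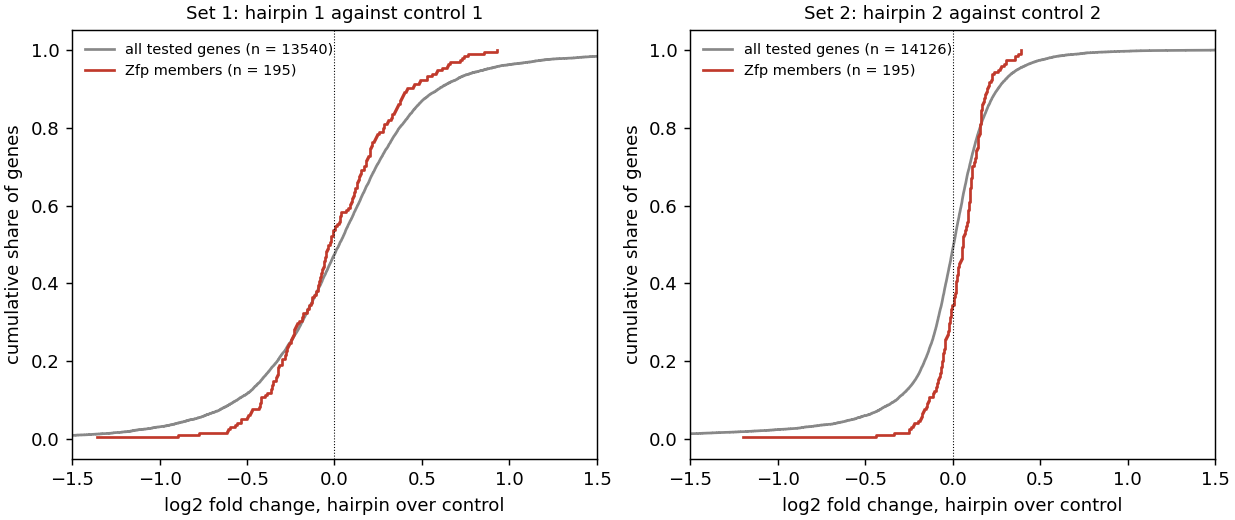
Cumulative share of genes by log2 fold change, hairpin over control, for the 195 members and for all tested genes, in set 1 and set 2. In set 2 the curve of the members lies to the right of that of all genes around 0 (median 0.06 against 0.0050), and in set 1 slightly to the left (-0.03 against 0.03); the axis ends at 1.5 in each direction.

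The labels do not say whether equal replicate numbers mark pairs. They were read as pairs in set 2 from correlations in these same data, and blocked results rest on that choice. With the number as a block more members passed: 21 higher (10.8%, background 10.2%) and 5 lower (2.56%, background 10.1%). At the same CPM minimum, 12% of genes were higher and 10.4% lower in that fit. All 4 members called without the block were among these 26. The hairpin library was the higher of its pair in all 4 pairs for 63 of the 195 members, and the lower in all 4 for 24 of the 195. Over all 14126 tested genes it was the higher in all 4 for 2889 (20.5%) and the lower for 2844 (20.1%). The counts also moved with the libraries used. No member was called higher when control 2 replicate 2 or hairpin 2 replicate 2 was left out, and 1 was when control 2 replicate 3 or hairpin 2 replicate 3 was. The backgrounds were 0.578% and 0.752%, and 1.12% and 0.932%, in that order. Leaving out hairpin 2 replicate 4 gave 5 higher and 3 lower calls (backgrounds 3.94% and 5.9%). With both replicate 4 libraries left out, 12 members were higher and 6 lower (backgrounds 7.93% and 9.02%). The DESeq2 Wald test called 9 higher and 2 lower (backgrounds 3.29% and 4.82%), and voom with quality weights 16 and 7 (backgrounds 8.16% and 9.3%).

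Zfp57 had 10.5, 10.9, 9.89 and 15.1 CPM in control 2 and 4.24, 5.29, 5.19 and 5.65 CPM in hairpin 2. Every hairpin 2 library lay below every control library, and the highest control value was replicate 4. The means were 11.6 ± 2.36 and 5.09 ± 0.602 CPM (SD, n = 4 each), and the fold fitted by edgeR was 0.436. The edgeR log2 fold change was -1.20 (SE 0.16, adjusted p = 0.0021), and the adjusted p was 2.1e-05 with the replicate block. The call held when any library of set 2 was left out, with a highest adjusted p of 0.011. In set 1 it had 11.2, 13.8 and 9.43 CPM in control 1 and 7.72, 11.3 and 8.48 CPM in hairpin 1. Those groups overlapped, with a log2 fold change of -0.32 (SE 0.31, adjusted p = 0.85 by edgeR). The difference between the hairpins in Zfp57 was -0.88 on the log2 scale and did not pass (edgeR adjusted p = 0.26). Around Zfp57, 15 other genes were tested within 1 Mb to each side, with a median log2 fold change of -0.08 in set 2. Of these 15, 2 were called lower (Trim31 and Trim40) and 0 higher, against 4.01% lower and 2.04% higher of all tested genes. Whether the region moved with Zfp57 was not tested.

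Zfp503 encodes a corepressor of transcription of the same small family as Zfp703 and lies on the minus strand at chr14:21983959-21989601. It had 198, 174, 185 and 150 CPM in control 2 and 240, 227, 249 and 211 CPM in hairpin 2. The lowest hairpin library lay above the highest control library. The log2 fold change was 0.39 (SE 0.09, adjusted p = 0.029 by edgeR). The set 1 level was far lower, at 7.45, 9.27 and 21.7 CPM in control 1 and 12.4, 7.92 and 14.4 CPM in hairpin 1. Those values overlapped, with a log2 fold change of -0.15 (adjusted p = 0.96 by edgeR). With one library left out the adjusted p of Zfp503 in set 2 was 0.097 and 0.057 without control 2 replicates 2 and 3. It was 0.078, 0.074 and 0.090 without hairpin 2 replicates 1, 2 and 3.

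Zfp316 encodes a protein with a KRAB box and 14 matches to the C2H2 pattern and lies on the minus strand at chr5:143249697-143270022. It had 55.9, 48.9, 52.7 and 45.9 CPM in control 2 and 64.6, 64.9, 62.5 and 68.0 CPM in hairpin 2, without overlap. The log2 fold change was 0.35 (SE 0.07, adjusted p = 0.016 by edgeR). It was not called without control 2 replicate 2 (edgeR adjusted p = 0.067) or without hairpin 2 replicate 2 (0.054). In set 1, Zfp316 had 37.6, 24.6 and 24.3 CPM in control 1 and 24.7, 23.3 and 13.8 CPM in hairpin 1, and the log2 fold change of -0.48 did not pass (edgeR adjusted p = 0.80). The difference between the hairpins was 0.83 on the log2 scale and did not pass either (adjusted p = 0.25 by edgeR).

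Zfp131 encodes a zinc finger protein with a BTB domain and lies on the minus strand at chr13:119765187-119790889. It had 60.1, 61.3, 63.5 and 61.7 CPM in control 2 and 73.3, 74.5, 74.6 and 92.9 CPM in hairpin 2. All hairpin libraries were above all controls, and replicate 4 stood above the other hairpin libraries. The log2 fold change was 0.35 (SE 0.08, adjusted p = 0.029 by edgeR), and 0.27 without hairpin 2 replicate 4 (adjusted p = 0.0085). The adjusted p was 0.091, 0.092, 0.059 and 0.061 without control 2 replicates 1 to 4, and 0.057 and 0.052 without hairpin 2 replicates 2 and 3. In set 1 its values overlapped, with a log2 fold change of 0.17 (edgeR adjusted p = 0.91).

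**Figure D2:**
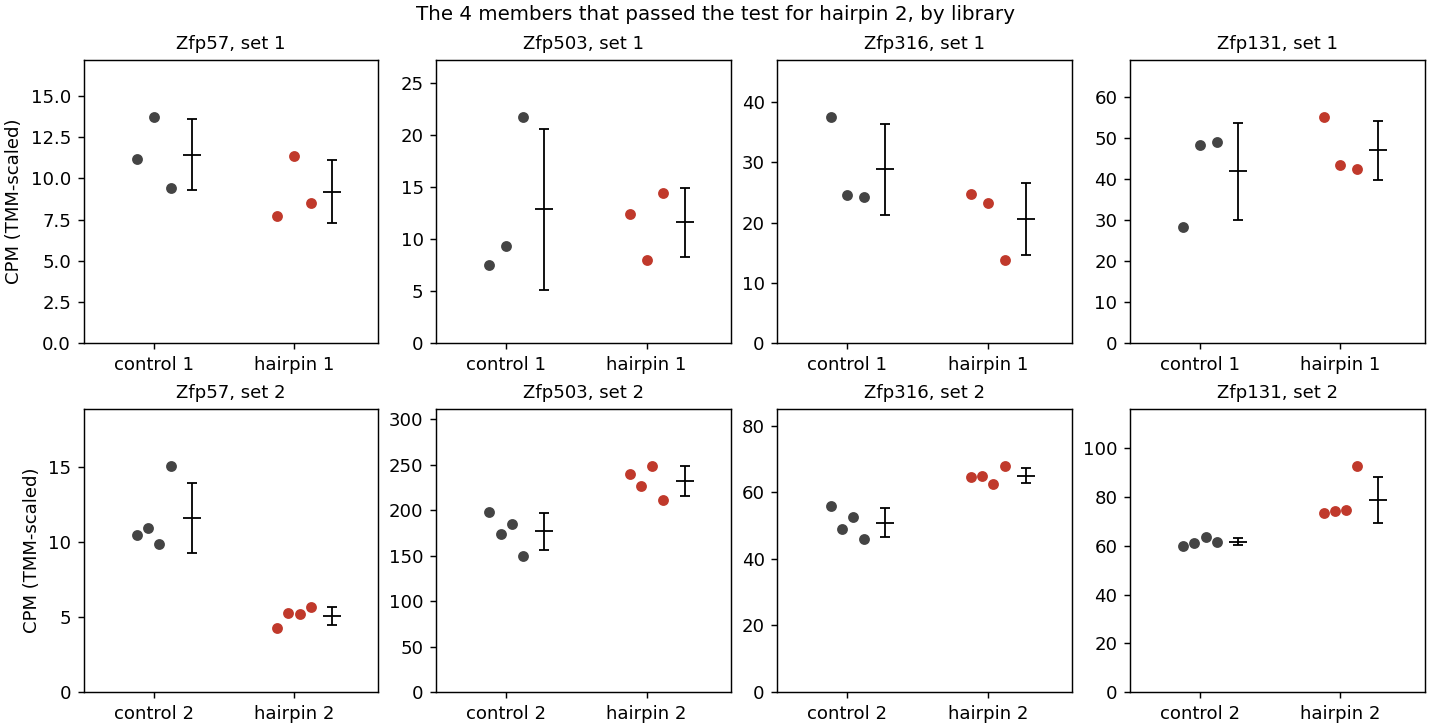
CPM by library (y axis, from 0, TMM-scaled) for Zfp57, Zfp503, Zfp316 and Zfp131 in set 1 (top) and set 2 (bottom); points are libraries, bars the mean and SD beside them. In set 2 the groups are apart for each gene (Zfp57 at 9.89 to 15.1 CPM in control 2 and 4.24 to 5.65 in hairpin 2), and in set 1 they overlap for each.

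A further 22 members passed the test with the replicate block alone, and they are named after their values were seen. The largest of the 18 that rose in that fit were Zfp748, Zfp428, Zfp362, Zfp398 and Zfp846, with edgeR log2 fold changes of 0.39, 0.37, 0.31, 0.28 and 0.27 without the block. Zfp748 had 11.8, 11.9, 12 and 10.2 CPM in control 2 and 15.2, 15.9, 17.8 and 11.3 CPM in hairpin 2. Its groups overlapped through replicate 4, and within every pair the hairpin library was higher. The blocked adjusted p of Zfp748 was 0.010. Also higher were Zfp12, Zfp770, Zfp367, Zfp644, Zfp68, Zfp839, Zfp513, Zfp319, Zfp410, Zfp655, Zfp236, Zfp664 and Zfp266, at 0.15 to 0.26. The 4 that fell in that fit were Zfp52, Zfp950, Zfp692 and Zfp7, with log2 fold changes of -0.44, -0.34, -0.25 and -0.19. Zfp52, a KRAB gene of the largest cluster, had 16.8, 17.6, 19.3 and 17.9 CPM in control 2 and 13.8, 14.2, 15.5 and 9.22 CPM in hairpin 2. The groups of Zfp52 did not overlap, and its adjusted p was 0.099 without the block and 0.012 with it. Voom with quality weights shared 18 of the 26 blocked calls and the DESeq2 Wald test 11.

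By chromosome, members on 5, 12 and 13 lay above 0 in set 2 more often than members elsewhere, and so did the other genes of these chromosomes. Of 27 members there, 26 lay above 0, with a median log2 fold change of 0.18. The 1988 other tested genes of these chromosomes had a median of 0.13, and 77.2% lay above 0. Zfp316 and Zfp131 were called higher there (7.41% of members, 6.59% of other genes), and with the replicate block 12 members were (44.4%, and 28.1% of other genes). The median of members was 0.18 on chromosome 5 (11 members, other genes 0.11), 0.10 on chromosome 12 (5 members, other genes 0.13) and 0.20 on chromosome 13 (11 members, other genes 0.18). Elsewhere the 168 members had a median of 0.03, with 102 (60.7%) above 0 and 1 called in each direction. Other genes elsewhere had a median of -0.01, with 46.5% above 0. In set 1, 17 of the 27 members lay above 0 (median 0.11), as did 61.1% of the other genes there (median 0.11). Elsewhere the set 1 medians were -0.05 for members and 0.01 for other genes. Without hairpin 1 replicate 1, members and other genes of these chromosomes had set 1 medians of 0.19 and 0.02. No rule set apart from these data chose chromosomes 5, 12 and 13, so the split is a description only. The part of these chromosomes in the member results was not tested beyond this split.

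**Figure D3:**
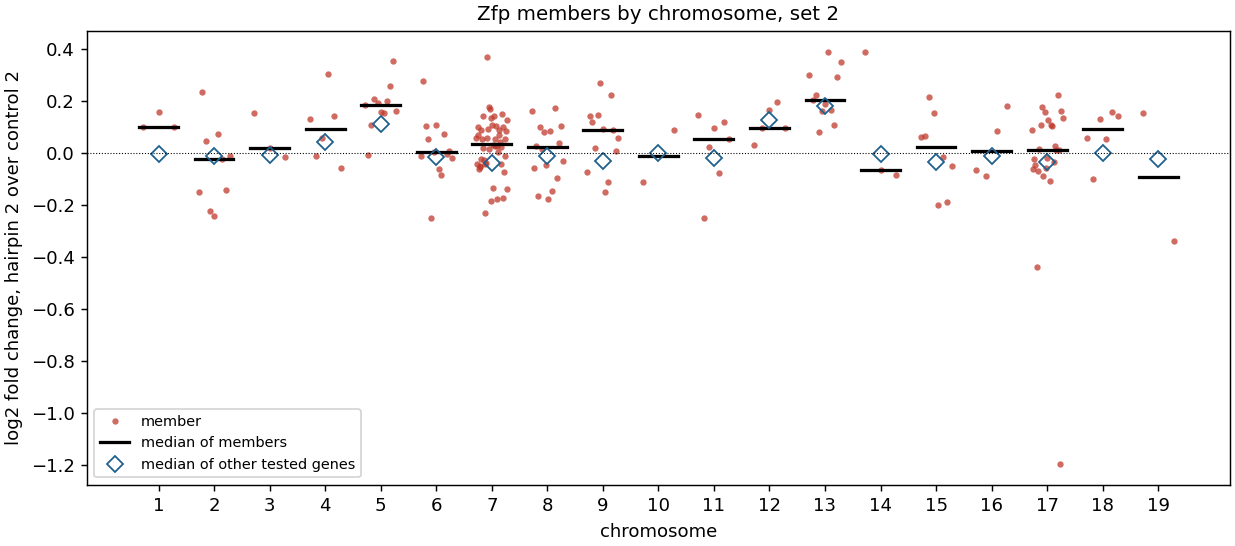
Log2 fold change of hairpin 2 over control 2 (y axis) for each member by chromosome (x axis), with the median of members (line) and of the other tested genes (open diamond). Members on chromosomes 5, 12 and 13 lie above 0 together with the other genes there (26 of 27 members), and Zfp57 is the low point on chromosome 17.

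Clusters were runs of at least 3 annotated Zfp genes with gaps of at most 500 kb. There were 31, of which 27 held a member, and 109 members stood in clusters and 86 were isolated. Clustered members had a median log2 fold change of 0.03 in set 2 and isolated members 0.08. Zfp316 was the 1 clustered member called (0.917%, higher), and 2 isolated members were called higher (2.33%) and 1 lower (1.16%). Over all tested genes 2.04% were higher and 4.01% lower. With the replicate block it was 8 higher (7.34%) and 2 lower (1.83%) in clusters and 13 higher (15.1%) and 3 lower (3.49%) outside, against 10.2% and 10.1% of all tested genes. The difference between clustered and isolated members was not tested. The 16 clusters with 3 or more members held 90 of them and no call in set 2 without the block, and no member of any cluster was called in set 1. Their set 2 medians ran from -0.03 to 0.17, with 13 of 16 above 0. Their set 1 medians ran more widely, from -0.53 to 0.32, with 6 of 16 above 0. The SE of member values was also larger in set 1.

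The largest cluster lay on chromosome 17 from 21008903 to 23599487 (GRCm38), with 14 members of 23 annotated genes, 13 of them with a KRAB pattern. Its set 2 median was -0.02, with 6 members above 0, between -0.44 for Zfp52 and 0.18 for Zfp994. Other tested genes of the span and 1 Mb to each side had a median of -0.06. The members of this cluster did not move in one direction. In set 1 its median was 0.04, and -0.08 without hairpin 1 replicate 1, with values from -0.40 for Zfp945 to 0.85 for Zfp52. That Zfp52 value rests on the same library, with 41.9 CPM where replicates 2 and 3 had 6.29 and 4.45 CPM, and it was -0.86 without this library.

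On chromosome 13, from 67038596 to 67827002, 5 members of 19 annotated genes were measured, and all 5 were above 0 in set 2. Their log2 fold changes ran from 0.11 for Zfp65 to 0.39 for Zfp748, with a median of 0.17 against 0.14 for the other genes of the region. By library, the median deviation of these members was 0.29, 0.21, 0.45 and -0.03 in hairpin 2 and 0.04, 0.08, 0.13 and -0.26 in control 2. The groups overlapped through the replicate 4 libraries, which were lowest in each, and the hairpin library was the higher in all 4 pairs. On chromosome 9, from 20345136 to 20605409, all 5 annotated genes were members with a KRAB pattern. All 5 lay above 0, from 0.02 for Zfp426 to 0.27 for Zfp846, with a median of 0.15 against -0.04 for other genes of the region. Their median deviation was 0.05, 0.20, 0.22 and -0.06 in hairpin 2 and 0.05, 0.01, 0.14 and -0.23 in control 2. These groups overlapped, and pair 1 showed no rise. The cluster on chromosome 15 from 75616679 also had a median above its region (0.15 against -0.11). Its 3 members ran from -0.20 for Zfp707 to 0.22 for Zfp41. Their median deviation was 0.14, 0.10, 0.06 and 0.0044 in hairpin 2 and 0.01, -0.07, -0.04 and 0.10 in control 2. The groups overlapped, and pair 4 went the other way. On chromosome 7 from 27731389, 5 members had 0.13 against -0.04, also with overlap, from -0.18 for Zfp36 to 0.18 for Zfp60. The cluster on chromosome 6 from 47819266 did not stand above its region (0.03 in both). Not every cluster is named here. Zfp266 and Zfp846 passed with the replicate block.

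In set 1 some clusters had medians far from 0, on the side of their region or against it. On chromosome 7, from 127233061 to 127885996, 9 members had a median log2 fold change of -0.42, and 1 of them lay above 0. Other genes of that region had a median of -0.21. By library, the deviation of these 9 members was -0.68, -0.17 and -0.30 in hairpin 1 and -0.18, -0.03 and 0.21 in control 1. Hairpin 1 replicate 1 was the lowest, and without it the median was -0.25. In set 2 the same 9 members had a median of 0.05, from -0.17 for Zfp747 to 0.15 for Zfp771. On chromosome 7 from 4915217 to 5053723, 3 members had a set 1 median of -0.53 (region -0.27), from -1.35 for Zfp579, with 1.23 CPM in hairpin 1 replicate 1 and 7.84 or more elsewhere, to -0.27 for Zfp628. In the opposite direction, 5 members from 27731389 to 28380253 had a set 1 median of 0.32 (region -0.13), from 0.09 for Zfp59 to 0.93 for Zfp36. By library, their deviation was 0.55, 0.45 and 0.02 in hairpin 1 and 0.11, 0.26 and -0.26 in control 1, which overlapped. Without hairpin 1 replicate 1 the median was 0.24. These 3 clusters also differed in median transcript GC, at 53.4, 63.5 and 41.4% in the order given, and its part was not tested. None of these members passed the test in set 1.

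**Figure D4:**
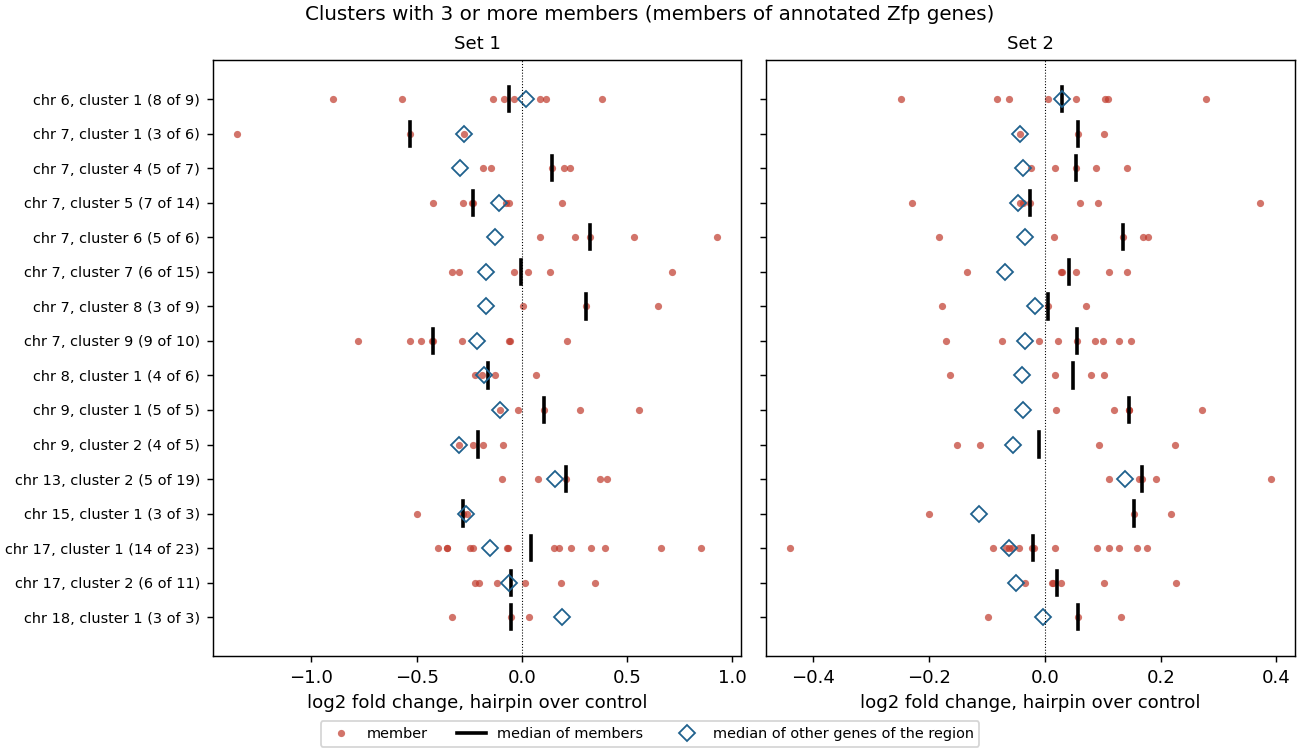
Log2 fold change, hairpin over control, of each member (points) in the 16 clusters with 3 or more members, with their median (bar) and the median of other tested genes of the region (open diamond), for set 1 (left) and set 2 (right, narrower axis). Set 2 medians lie between -0.03 and 0.17, and set 1 medians between -0.53 and 0.32.

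Zfp proteins do not all bind DNA, and members known to act on RNA or in translation were taken as a list of 6. None passed the test in either set, nor with the replicate block in set 2. Zfp598, a ubiquitin ligase that acts on collided ribosomes, had 185, 171, 168 and 227 CPM in control 2 and 168, 161, 148 and 221 CPM in hairpin 2. The groups overlapped, though the hairpin library was the lower of each pair, and the log2 fold change was -0.11 (adjusted p = 0.72 by edgeR, 0.080 with the block). Zfp622, which takes part in maturation of the large ribosomal subunit, had log2 fold changes of -0.36 in set 1 and 0.06 in set 2. Zfp346, which binds double-stranded RNA, had 0.03 and 0.20, and Zfp326, which links transcription to splicing, had 0.41 and 0.11. Zfp106, an RNA-binding protein, had -0.04 and 0.05.

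Zfp36 (tristetraprolin) binds AU-rich elements and promotes decay of mRNAs. It had 21.2, 19.5 and 18.3 CPM in control 1 and 57.9, 26.8 and 27.8 CPM in hairpin 1. The groups of Zfp36 did not overlap, and replicate 1 stood above the other hairpin libraries. Its log2 fold change of 0.93 (SE 0.34) did not pass (adjusted p = 0.80 by edgeR), and was 0.47 without hairpin 1 replicate 1. In set 2 it had 117, 100, 108 and 142 CPM in control 2 and 110, 102, 107 and 92.6 CPM in hairpin 2, with a log2 fold change of -0.18 (edgeR adjusted p = 0.37).

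Of 7 listed genes that act on retroelements or imprints, 6 were members, and Zfp57 was the one called. That is 16.7% of the 6 in set 2, against 6.05% of all tested genes, and it rests on Zfp57 alone. The lists here and below were chosen with earlier results of these data known, so their shares of calls are descriptions only. Zfp445, which maintains imprints alongside Zfp57, had 289, 294, 323 and 277 CPM in control 2 and 292, 305, 331 and 306 CPM in hairpin 2. Its log2 fold change was 0.06 (adjusted p = 0.68 by edgeR), and 0.34 in set 1 (adjusted p = 0.84). Zfp809, which represses retroviral DNA through the primer binding site, had -0.30 in set 1 and -0.15 in set 2. Zfp568, which represses a placental transcript of Igf2, had -0.04 and 0.14. Zfp932, which binds endogenous retroviruses, had -0.03 and 0.19, and Zfp961 had 0.28 and -0.18.

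Of 25 listed partners in chromatin and transcription, 20 were members, with a median log2 fold change of 0.09 in set 2 and 13 above 0. Zfp503 was called higher (5% of the 20, against 2.04% of all tested genes higher and 6.05% in either direction). With the replicate block Zfp644 and Zfp410 were also higher (15%, against 10.2% higher and 20.4% in either direction). Zfp644, a partner of the histone H3 lysine 9 methyltransferases G9a and GLP, had 52.5, 55.9, 60.8 and 46.2 CPM in control 2 and 58.4, 59.3, 73.9 and 58.0 CPM in hairpin 2. These groups overlapped, and the hairpin library was higher in every pair (log2 fold change 0.21, edgeR adjusted p = 0.30, and 0.018 with the block). Zfp410, an activator of Chd4, had 59.2, 56.9, 57.7 and 55.3 CPM in control 2 and 63.5, 65.6, 62.9 and 65.0 CPM in hairpin 2, without overlap. Its log2 fold change of 0.17 had an adjusted p of 0.096 without the block and 0.032 with it. Zfp703, a corepressor related to Zfp503, had 206, 185, 197 and 163 CPM in control 2 and 209, 189, 197 and 170 CPM in hairpin 2, at a log2 fold change of 0.03. The other 16 ranged in set 2 from -0.08 for Zfp207, which binds spindle microtubules and the checkpoint protein Bub3, to 0.16 for Zfp318, and none passed with or without the block. Zfp207 did not overlap between the groups, on the lower side. In set 1, 0 of these 20 passed and 11 lay above 0, between -0.61 for Zfp219 and 0.76 for Zfp217.

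The corepressors used by KRAB proteins were read from a list of 19 genes. Dnmt3a, a de novo DNA methyltransferase, was the one called in set 2, higher at a log2 fold change of 0.26 (SE 0.06, adjusted p = 0.036 by edgeR). It had 113, 112, 107 and 106 CPM in control 2 and 125, 127, 129 and 147 CPM in hairpin 2, and it lies on chromosome 12. With the replicate block Fam208a, a subunit of the HUSH complex, was also higher (0.34, edgeR adjusted p = 0.0028) and Chd3 lower (-0.13, adjusted p = 0.032). Trim28 had 545, 545, 512 and 515 CPM in control 2 and 558, 583, 552 and 468 CPM in hairpin 2, which overlapped. The log2 fold change of Trim28 was 0.03 in set 2 and -0.25 in set 1, and that of Setdb1 was -0.07 and -0.02, and none of these passed. In set 2 the calls came to 5.26% of the list, against 6.05% of all tested genes, and with the block to 15.8%, against 20.4%. In set 1, 0 of the 19 were called.

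Families of other zinc finger genes were set beside the members at the same CPM minimum. In set 2, 33 Zbtb genes had a median log2 fold change of 0.12 with 29 above 0 and no call. The 15 Zscan and Zkscan genes had a median of 0.12 with no call. The 16 Klf and Sp genes had 0.13 with 1 called higher (6.25%, against 2.21% of all genes at this minimum). With the replicate block 8 Zbtb genes, 4 Zscan and Zkscan genes and 8 Klf and Sp genes were higher, or 24.2%, 26.7% and 50%, against 10.8% of members and 12% of all genes at this minimum. Their set 1 medians were 0.04, 0.12 and 0.45, and without hairpin 1 replicate 1 they were -0.04, 0.02 and 0.12. Differences between these families and the members were not tested.

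Hairpin 1 gave no call for any member, as for all 13540 genes tested in set 1 (background 0.0%, edgeR). The median SE of member log2 fold changes was 0.31 in set 1, against 0.09 in set 2. Absence of a call in set 1 thus does not show that members were unchanged. At an unadjusted p under 0.05 there were 6 members, against 5.41% of all tested genes, and DESeq2 also called no member. The median log2 fold change of members was -0.03, against 0.03 over all tested genes, and 90 of 195 (46.2%) lay above 0. Without hairpin 1 replicate 1 again no member was called, with 14 at an unadjusted p under 0.05 (background 15.8%, and 0.0072% at an adjusted p under 0.05) and a median of -0.05. Groups did not overlap for 9 members in the higher direction (4.62%, background 6.5%) and for 15 in the lower direction (7.69%, background 6.34%). The members with the smallest p in each direction were Zfp36, Zfp938, Zfp367, Zfp608 and Zfp715 on the higher side, with edgeR log2 fold changes of 0.93, 0.73, 0.53, 0.59 and 0.65. On the lower side were Zfp646, Zfp777, Zfp692, Zfp865 and Zfp623, at -0.78, -0.57, -0.60, -0.53 and -0.50. The adjusted p of each of these 10 was 0.80.

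Zfp646 had 60.3, 56.1 and 104 CPM in control 1 and 48.2, 43.9 and 36.5 CPM in hairpin 1, so that the groups did not overlap and one control library stood high. Zfp623 had 32.8, 32.6 and 35.8 CPM in control 1 and 23.8, 25.7 and 22.1 CPM in hairpin 1. In set 2 the values of these genes went the other way, without passing: Zfp646 had a log2 fold change of 0.13 and Zfp623 of 0.15. Zfp692 was below its control with both hairpins. It had 40.7, 54.2 and 36.1 CPM in control 1 and 28.2, 30.4 and 28.1 CPM in hairpin 1, and 54.1, 48.5, 45.6 and 60.1 CPM in control 2 and 42.0, 44.8, 37.3 and 50.7 CPM in hairpin 2. The set 2 groups of Zfp692 overlapped, and its blocked adjusted p there was 0.0079.

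GC content of the transcript went with the set 1 values. Over the 195 members the log2 fold change of hairpin 1 had a Pearson r of -0.40 with GC content, against -0.30 over 13525 tested genes, and -0.39 over members without hairpin 1 replicate 1. In set 2, r was 0.01 over members and -0.05 over 14111 tested genes. These points share libraries and are not independent. Members at or above the median GC of 45.8% had a set 1 median of -0.10 (30 of 98 above 0), and those below it 0.10 (60 of 97 above 0). Members of lower GC thus lay above 0 more often in set 1, and the part of GC content in the set 1 values was not tested. By library, r between the deviation of a member and its GC was -0.26, -0.47 and -0.24 in hairpin 1 and 0.14, -0.31 and 0.15 in control 1. Control 1 replicate 2 thus lay with the hairpin libraries.

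**Figure D5:**
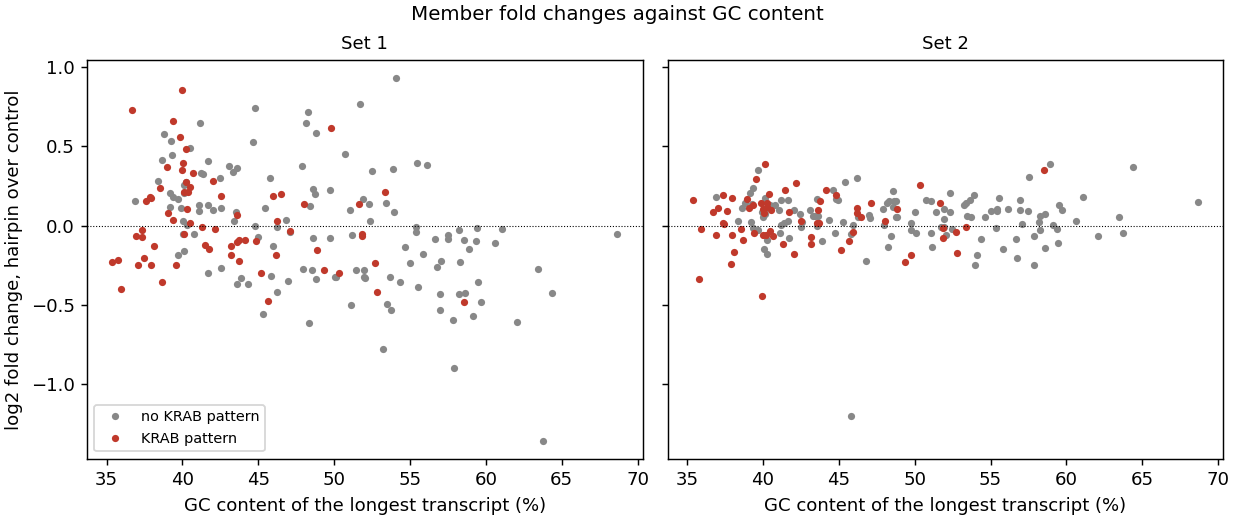
Log2 fold change, hairpin over control (y axis), against GC content of the longest transcript in percent (x axis) for the 195 members in set 1 and set 2, with members that carry a KRAB pattern in red. Set 1 values decline with GC (r = -0.40), and set 2 values show no such slope (r = 0.01).

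The direct test of the difference between hairpins called no member (background 0.412% of 15043 genes, 0.0465% higher and 0.366% lower, edgeR). Without hairpin 1 replicate 1 there were 7 calls (background 6.26%), without control 1 replicate 2 there was 1 (background 1.61%), and voom with quality weights gave 9 (background 8.79%). Across members the set 1 and set 2 log2 fold changes had r = 0.03 (all 12384 genes tested in both, 0.05). Zfp367 and Zfp830 were the members above their control without overlap in both sets (background 0.791%), and none was below in both (background 0.816%). Zfp367 had 22.3, 29.2 and 29.2 CPM in control 1 and 30.4, 37.7 and 48.3 CPM in hairpin 1, and 31.4, 35.7, 34.9 and 28.5 CPM in control 2 and 36.0, 37.8, 42.0 and 36.9 CPM in hairpin 2. Zfp830, known for a role in pre-mRNA splicing, had 12.7, 16.6 and 15.8 CPM in control 1 and 18.2, 17.7 and 17 CPM in hairpin 1, and 26.2, 26.0, 26.1 and 24.8 CPM in control 2 and 29.2, 27.1, 29.5 and 26.2 CPM in hairpin 2. Neither gene passed the test in a set without the block.

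Protein features were read from the translated GENCODE coding sequences of 194 members, and the other member, Zfp125, is annotated as a pseudogene. A KRAB pattern was found in 67 members, 56 of them in clusters and 11 isolated. The KRAB pattern undercounts, since it did not match Zfp57, a known KRAB protein. Finger counts are matches to the C2H2 pattern and may also be too low. Clustered members had a median of 11 fingers and isolated members 7, and 5 members had none that matched, among them Zfp36, whose fingers are of another type, Zfp503 and Zfp703. Members with the KRAB pattern had a median log2 fold change of 0.03 in set 2 and those without it 0.06. Zfp316 was the 1 member with the pattern called higher (1.49%, against 2.04% of all tested genes). By number of fingers, set 2 medians were 0.08 for 14 members with 0 or 1 finger, 0.07 for 36 with 2 to 5, 0.05 for 75 with 6 to 11 and 0.06 for 69 with 12 or more. The KRAB members had lower GC (median 40.7% against 48.8%). Among the 163 members with a matched promoter, those with at least the median CG count had a set 2 median of 0.09 (63 of 87 above 0). The others of the 163 had 0.02 (43 of 76 above 0). Pearson r between CG count and log2 fold change was 0.20 in set 2 and -0.11 in set 1. The difference was not tested.

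Levels can be compared between genes only per length. On the scale of CPM per kb of exon, the highest members in set 1 were Zfp706 (45.4), Zfp703 (43.6), Zfp664 (36.4), Zfp598 (33.8) and Zfp869 (28.3). In set 2 they were Zfp703 (55.8), Zfp503 (48.4), Zfp598 (46.4), Zfp664 (45.2) and Zfp740 (40.9). Zfp703, Zfp664 and Zfp598 were thus among the highest in both sets, and levels of one set were not tested against those of the other. None of these passed the test in set 1, and Zfp503 did in set 2. Zfp664, on chromosome 5, had 330, 343, 339 and 327 CPM in control 2 and 377, 358, 374 and 384 CPM in hairpin 2, without overlap. Its log2 fold change of 0.16 had an adjusted p of 0.093 by edgeR and 0.024 with the replicate block.

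Some counts cannot be assigned to one gene with certainty. Over 20% of the words of 50 bases of a member were shared with other genes for 9 members, namely Zfp59 (52.4%), Zfp617, Zfp932, Zfp747, Zfp125, Zfp825, Zfp414, Zfp429 and Zfp93, and 150 members shared under 2%. An annotated gene on the other strand overlapped 71 members, Zfp131 among them, and one on the same strand 37. The kit marks strand, and the strand setting of the counting is not given in the sources used here, so reads of overlapping genes may not be told apart.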

How the data were processed

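Poly(A) RNA of 14 libraries was sequenced after a stranded library preparation, per the labels' protocols. The authors deposited raw read counts per gene for each library; STAR, featureCounts and bcl2fastq 2.20 are named with GRCm38 in the submitters' processing notes, and versions of the other tools are not given there. Only the 14 libraries of the 2 sets were used, grouped by their labels.

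Each set was fitted on its own with edgeR 4.0.16 (R 4.3.3): genes were kept by filterByExpr, totals scaled by TMM, and the quasi-likelihood test adjusted by Benjamini-Hochberg over all genes tested, at 0.05. A model of all 4 groups tested the difference between hairpins. Printed CPM are TMM-scaled, and the minimum that chose the members is on plain totals. Alternatives were DESeq2 1.42.0 size factors and Wald test, no filter, a replicate block, one model of all groups, limma 3.58.1 voom with quality weights, and libraries left out. Members on and off single chromosomes were counted within the same fit. Tests were also run on simulated counts, with 50 genes changed at each fold. In set 1, 0 of 50 were called at 1.5-fold, 1 at 2-fold and 22 at 4-fold. In set 2 these were 29, 42 and 49.

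Libraries with one number deviated together in set 2 (correlations 0.371, 0.255, 0.393 and 0.691), so the numbers were read as pairs there. The labels do not give pairs, and 0.255 lay below the 0.264 and 0.298 of set 1, which was not paired. Fingers and KRAB boxes were patterns in translated GENCODE M21 coding sequences, and promoters came from RefSeq GRCm38.p6. Other genes of a region are those within a cluster's span and 1 Mb to each side.

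Genes were named by rule: those called, in set 1 the 5 smallest p per direction, those without overlap in both sets, the extremes of each cluster in set 2, the highest levels and the role lists. Cluster extremes of set 1 and members called with the block alone were chosen after their values were seen. Members and lists were chosen with earlier results of these data known.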

Additional observations from a re-analysis of the deposited data

Results flagged for a closer look

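Groups of 4 libraries were examined in 156 cases, which do not cover all members. In 7 of these 156, 1 library stood apart by Dixon's test at the 95% level, which flags about 1 group in 20 by chance. Each is given as CPM with the range of the other 3 libraries. Hairpin 2 replicate 4 was high for Zfp131 (92.9, others 73.3 to 74.6) and Zfp398 (25.5, others 19.6 to 20.4) and low for Zfp568 (28, others 33.5 to 34.4). Hairpin 2 replicate 3 was high for Zfp60 (30.8, others 25.7 to 26.3) and Zfp644 (73.9, others 58.0 to 59.3). Control 2 replicate 3 was high for Zfp608 (59.7, others 50.5 to 51.9), and control 2 replicate 4 was low for Zfp748 (10.2, others 11.8 to 12).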

How the results depend on the processing

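Calls of single members in set 2 depended on the fit, apart from Zfp57. Against 3 members higher and 1 lower, the DESeq2 Wald test gave 9 and 2, the replicate block 21 and 5, voom with quality weights 16 and 7, and both replicate 4 libraries left out 12 and 6. One model of all 4 groups gave 0 higher and 1 lower. The share of all tested genes in that model is not given, so these 2 counts have no background here. Within the edgeR fit of set 2 without the block, 168 members off chromosomes 5, 12 and 13 had 1 call in each direction (0.595% each). Other genes off these chromosomes had 1.29% higher and 4.41% lower. With 1 library left out there were 0 to 5 higher, fewest without control 2 replicate 2 or hairpin 2 replicate 2 and most without hairpin 2 replicate 4, and 1 to 3 lower. DESeq2 size factors and no filter kept both counts. The difference between hairpins had 0 calls, 9 with voom, and 0 to 7 with 1 library left out, most without hairpin 1 replicate 1. Set 1 had 0 calls in each alternative run. The cause of these changes was not tested. The replicate numbers of set 1 were not read as pairs (correlations 0.264, 0.0002 and 0.298), and the replicate block gave 0 calls there. A gap of 250 kb put 93 members in clusters and one of 1 Mb 115, against 109, and a looser KRAB pattern, chosen after seeing the data, matched 73 against 67. Whether depth limited the calls among low members was not tested.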
